A study of Mus musculus with 8 samples.

Results

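A group of 10 genes of the Notch pathway was followed through the ventricular transcriptome of mouse embryos that overproduce neuregulin-1. They are the receptors *Notch1*, *Notch2* and *Notch3*, the ligands *Dll4* and *Jag1*, the *Hey* and *Hes* genes *Hey1*, *Hey2*, *Heyl* and *Hes1*, and the feedback gene *Nrarp*. The genes were chosen by symbol, and all 10 were found among the 53465 Ensembl gene identifiers of the count table. Poly(A) RNA from heart ventricles at E15.5 was sequenced in 4 Nrg1GOF and 4 wild-type (WT) libraries, with 1 ventricle sample per replicate. Nrg1GOF embryos are labelled Rosa26Nrg-1 with a Cre driver, so that recombination by Cre starts an added source of *Nrg1* placed in Rosa26. The driver is written Nkx2.5-Cre in the title of the series and Nkx5.5-Cre in the genotype label, and WT embryos are labelled WT with no further detail. The transgene is switched on in cells with a history of the driver and not in the ventricle as a whole, and its protein is secreted.

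Notch receptors are single-pass membrane proteins that are cleaved when a ligand on a neighbouring cell pulls on them. The released intracellular domain enters the nucleus, binds the DNA-binding protein RBPJ and switches on targets such as the *Hey* and *Hes* genes, which encode transcriptional repressors of the basic helix-loop-helix class. In the developing heart the pathway is best known in the endocardium and coronary endothelium, where Notch1 acts on the myocardium through endocardial signals that include neuregulin-1. *Hey2* is also made by ventricular cardiomyocytes, where it marks the compact layer of the wall.

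The genotype label was checked first on the targeted gene. *Nrg1* was at 61.8 ± 1.90 counts-per-million (CPM, on library sizes scaled by trimmed mean of M-values) in Nrg1GOF and at 4.03 ± 0.652 CPM in WT (SD, n = 4), a log2 fold change of 3.94. Library totals ran from 8038641 counts in Nrg1GOF library 4 to 26786039 counts, so that 3 counts corresponded to between 0.112 and 0.373 CPM, a floor that covers counting error only. The 10 genes had between 201 and 4932 counts in every library and all passed the filter on low counts. WT libraries 1 and 2 (r = 0.989 across genes) and WT libraries 3 and 4 (r = 0.991) resembled each other more than the other WT pairings did (r = 0.980 to 0.981). In 9 of the 10 genes the levels of WT libraries 1 and 2 did not overlap those of WT libraries 3 and 4, *Hey1* being the exception, and values against each WT pair are therefore given where they matter. How often this holds over all tested genes was not computed, so the count is not read as a trait of these 10 genes. Nothing in the labels says whether replicates came from separate litters, so p values measure the spread between these libraries.

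Of the 10 genes, 4 were higher in Nrg1GOF (*Notch1*, *Hey1*, *Heyl* and *Hes1*), 2 were lower (*Hey2* and *Nrarp*) and 4 did not pass the test (*Notch2*, *Notch3*, *Dll4* and *Jag1*). A gene is described as called when the quasi-likelihood F-test of edgeR gave a Benjamini-Hochberg adjusted p under 0.05 over all 15580 tested genes. By the same rule 28.7% of all tested genes were called, 15.9% higher and 12.8% lower. The 6 called genes were also the 6 whose Nrg1GOF and WT libraries did not overlap, which held for 30.7% of all tested genes. The median log2 fold change was 0.10 over the 10 genes and -0.012 over all tested genes. The same 6 genes were called with DESeq2, with limma-voom, without each library in turn and against each WT pair alone. With a covariate of atrial markers 4 of them were called and *Notch1* and *Heyl* were not, and with a covariate of endothelial markers, which separates the genotypes by itself, no gene of the transcriptome was called by edgeR (1933 at an unadjusted p under 0.05). In that fit *Hey2* was at -2.29, *Nrarp* at -0.59, *Hey1* at 0.99, *Heyl* at 1.25 and *Notch1* at 0.79, with the direction of the reported values and no smaller in size, and *Hes1* was at -0.58, the opposite direction. *Notch2*, *Notch3* and *Jag1* stood at 1.37, 1.72 and 1.89 in it, beside 0.0099, 0.015 and 0.19 in the reported fit. The sizes in the fit with the endothelial covariate are therefore a description only. Because the whole ventricle was sampled, fewer cells of a type and less RNA per cell cannot be told apart in any of these values.

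**Figure D1:**
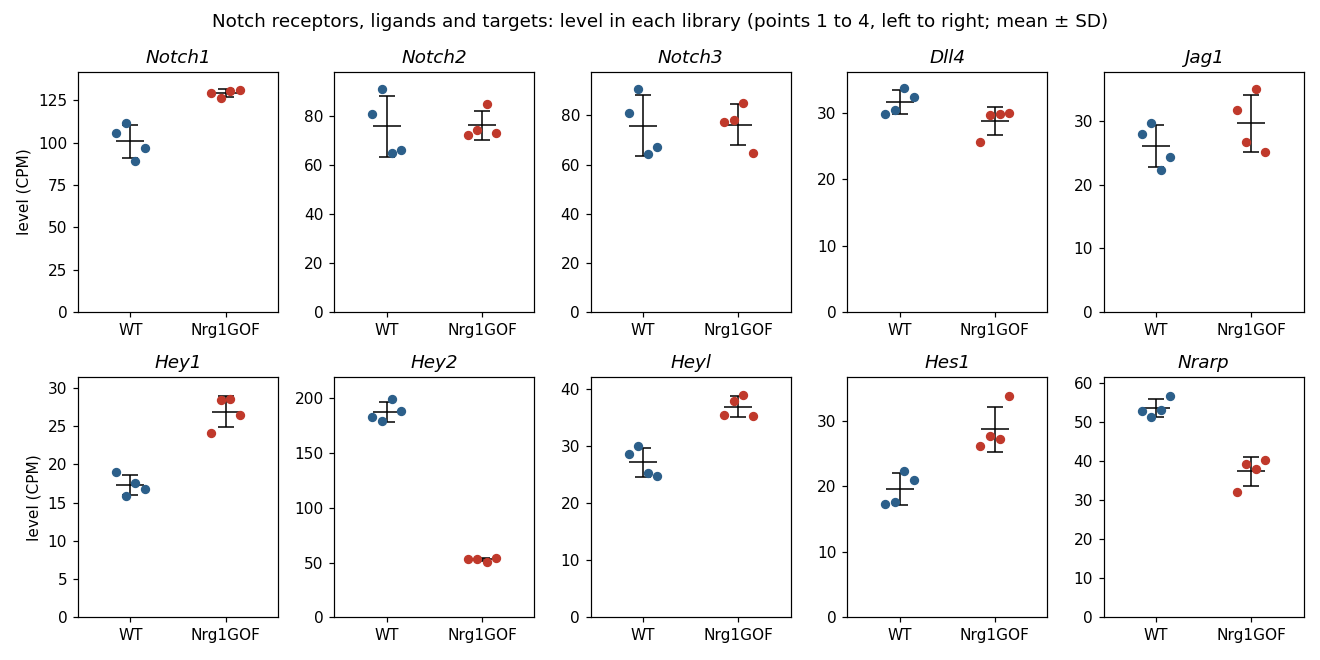
Level in CPM (vertical axis, from 0) of each gene in the 4 WT (blue) and 4 Nrg1GOF (red) libraries, with the mean and SD in black. *Hey2* stands at 179 to 199 CPM in WT and at 51.0 to 54.1 CPM in Nrg1GOF, *Nrarp* is also lower without overlap, and *Notch1*, *Hey1*, *Heyl* and *Hes1* are higher without overlap.

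**Figure D2:**
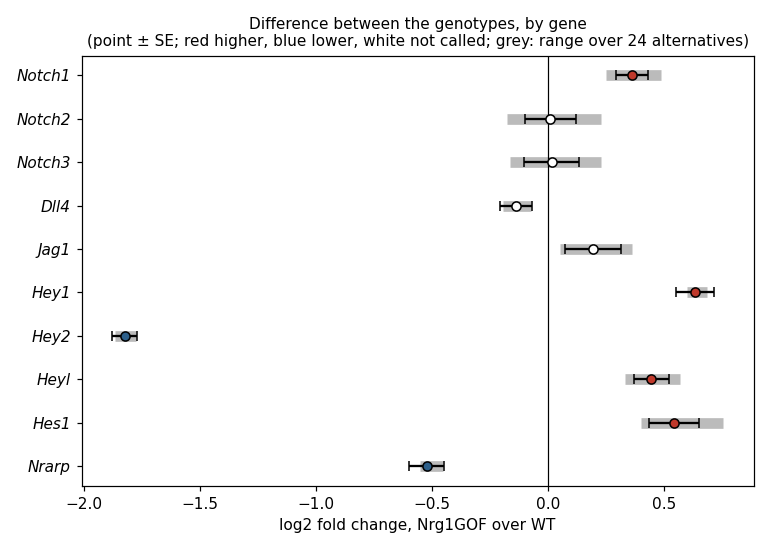
Log2 fold change of Nrg1GOF over WT (horizontal axis) for each gene, with the SE as black bars. Red points are called higher, blue points called lower and white points not called. Grey bands span the values from 24 alternative fits, thresholds or library sets without a covariate, and those of *Notch2* and *Notch3* reach both sides of 0.

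The stretch of 250 bases before the RefSeq start is shown for *Hey2* and *Nrarp*, the 2 genes that were lower, and for *Notch1*, which was higher, so that the letters of known Notch-related motifs can be compared between them. RefSeq (GRCm38.p6) gave such a stretch for 7 of the 10 genes, and none was matched for *Hey1*, *Heyl* and *Hes1*. The sequences are printed 5′ to 3′ on the strand of the gene, and capitals mark the motif matches described after them. The windows use the start given by RefSeq, which for *Notch1* lies well inside the gene as the GENCODE coordinates given further on draw it, and for *Hey2* just inside. They are chr10:30842784-30843033 on the minus strand for *Hey2*, chr2:25180508-25180757 on the plus strand for *Nrarp* and chr2:26503823-26504072 on the minus strand for *Notch1*.
Hey2: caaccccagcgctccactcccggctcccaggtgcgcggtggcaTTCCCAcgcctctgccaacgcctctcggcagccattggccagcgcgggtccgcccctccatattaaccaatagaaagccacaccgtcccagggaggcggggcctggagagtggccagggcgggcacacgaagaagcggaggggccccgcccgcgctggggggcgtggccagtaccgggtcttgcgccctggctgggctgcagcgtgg
Nrarp: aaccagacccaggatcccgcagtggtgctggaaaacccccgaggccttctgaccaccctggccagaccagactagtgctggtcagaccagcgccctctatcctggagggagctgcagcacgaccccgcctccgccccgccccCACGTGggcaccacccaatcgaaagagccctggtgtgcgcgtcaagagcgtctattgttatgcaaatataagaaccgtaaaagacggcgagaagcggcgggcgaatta
Notch1: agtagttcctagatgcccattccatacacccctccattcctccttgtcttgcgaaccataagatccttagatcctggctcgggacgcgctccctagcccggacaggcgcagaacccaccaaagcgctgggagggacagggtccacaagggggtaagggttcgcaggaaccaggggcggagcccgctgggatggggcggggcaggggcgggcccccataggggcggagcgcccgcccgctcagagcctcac
The core of the RBPJ motif, TGGGAA or its reverse complement TTCCCA, was found once in the *Hey2* window, with its first base at -207 from the start, and in none of the other 6 windows. It occurs in 21.6% of the 32851 promoter windows of the same length, so its presence in 1 of 7 is a description only. The E-box CACGTG, whose letters read alike on both strands, was found in the *Nrarp* window and in 6.02% of all windows. The class C site bound by Hes-type repressors, CACGCG or CGCGTG, was found in the windows of *Dll4*, *Jag1* and *Notch2* and in 7.62% of all windows. The E-box and the class C site differ in 1 letter and were never counted at the same first base.

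Of the receptors, *Notch1* was higher in Nrg1GOF. *Notch1* (ENSMUSG00000026923, chr2:26457903-26516663 on GRCm38, minus strand) is the receptor of the endocardium and of arterial endothelium. It stood at 130, 126, 131 and 131 CPM in Nrg1GOF libraries 1 to 4 and at 106, 112, 89.3 and 96.7 CPM in WT libraries 1 to 4. All Nrg1GOF libraries lay above all WT libraries, and WT libraries 3 and 4 were the lowest. The log2 fold change was 0.36 (SE 0.07, adjusted p = 0.00392, edgeR). When each WT pair served as the sole control, it was 0.25 for WT 1 and 2 (adjusted p = 0.0227) and 0.48 for WT 3 and 4 (adjusted p = 0.00104). With the atrial covariate it was 0.21 and did not pass (adjusted p = 0.219).

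*Notch2* and *Notch3* did not pass the test. *Notch2* (ENSMUSG00000027878, chr3:98013527-98150361, plus strand), a receptor of broad expression, was at 72.4, 74.4, 84.9 and 73.0 CPM in Nrg1GOF and at 81.0, 91.1, 64.7 and 66.3 CPM in WT. *Notch3* (ENSMUSG00000038146, chr17:32120820-32166852, minus strand), the receptor of pericytes and vascular smooth muscle, was at 77.1, 78.1, 85.2 and 64.8 CPM in Nrg1GOF and at 81.1, 90.8, 64.2 and 67.4 CPM in WT. For both receptors the WT libraries spread to both sides of most Nrg1GOF libraries, with WT 1 and 2 high and WT 3 and 4 low. The log2 fold change was 0.0099 (SE 0.11, adjusted p = 0.961, edgeR) for *Notch2* and 0.015 (SE 0.12, adjusted p = 0.945) for *Notch3*. Its sign turned with the WT pair, from -0.17 against WT 1 and 2 to 0.23 against WT 3 and 4 in both genes.

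Neither ligand passed the test. *Dll4* (ENSMUSG00000027314, chr2:119325784-119335962, plus strand), the ligand of endothelial cells at the base of trabeculae and in arteries, was at 25.6, 29.7, 29.9 and 30.0 CPM in Nrg1GOF and at 29.9, 30.5, 33.7 and 32.5 CPM in WT. Nrg1GOF libraries 1 and 2 lay below all WT libraries and the other two level with WT library 1, and the log2 fold change was -0.14 (SE 0.07, adjusted p = 0.181, edgeR). It was -0.072 against WT 1 and 2, -0.20 against WT 3 and 4 and -0.084 without Nrg1GOF library 1, and did not pass in any of these. *Jag1* (ENSMUSG00000027276, chr2:137081456-137116644, minus strand), a ligand that is also made by myocardium and smooth muscle, was at 31.6, 26.6, 34.9 and 25.1 CPM in Nrg1GOF and at 28.0, 29.6, 22.3 and 24.3 CPM in WT. Its groups overlapped, and the log2 fold change was 0.19 (SE 0.12, adjusted p = 0.268, edgeR), ranging from 0.05 against WT 1 and 2 to 0.36 against WT 3 and 4.

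*Hey2* fell by the widest margin of the 10 genes. *Hey2* (ENSMUSG00000019789, chr10:30832359-30842801, minus strand) was at 53.5, 53.2, 51.0 and 54.1 CPM in Nrg1GOF and at 183, 179, 199 and 188 CPM in WT. The Nrg1GOF libraries lay within a few CPM of each other, and none came near the WT libraries. The level was 3.54-fold higher in WT, and edgeR gave a log2 fold change of -1.82 with an SE of 0.05 (adjusted p = 1.14e-07). It was the only one of the 10 genes to pass when an absolute log2 fold change of at least 1 was also asked for, a rule met by 724 genes in all.

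The other *Hey* and *Hes* genes went the opposite way. *Hey1* (ENSMUSG00000040289, chr3:8663359-8667256, minus strand), a paralogue that marks atrial myocardium and endothelium, was at 24.1, 28.4, 28.6 and 26.5 CPM in Nrg1GOF and at 19.0, 15.9, 17.6 and 16.8 CPM in WT. Its groups did not overlap, and the log2 fold change was 0.63 (SE 0.08, adjusted p = 0.000417, edgeR). *Heyl* (ENSMUSG00000032744, chr4:123233556-123249875, plus strand), the paralogue of vascular smooth muscle, was at 35.5, 37.9, 39.0 and 35.3 CPM in Nrg1GOF and at 28.5, 30.1, 25.2 and 24.8 CPM in WT. All Nrg1GOF libraries again lay above all WT libraries, and the log2 fold change was 0.44 (SE 0.08, adjusted p = 0.00192, edgeR), but with the atrial covariate it was 0.25 and did not pass (adjusted p = 0.161). Against WT 1 and 2 it was 0.33 and against WT 3 and 4 it was 0.57, both called. *Hes1* (ENSMUSG00000022528, chr16:30064384-30067796, plus strand), a Hes-type repressor of many tissues that answers to signals beside Notch, was at 26.2, 27.6, 27.3 and 33.8 CPM in Nrg1GOF and at 17.3, 17.6, 22.3 and 21.0 CPM in WT. Its highest library, Nrg1GOF 4, was also the shallowest, and the groups did not overlap. The log2 fold change of *Hes1* was 0.54 (SE 0.11, adjusted p = 0.0047, edgeR), and it was called at 0.70 against WT 1 and 2, at 0.40 against WT 3 and 4 and at 0.89 with the atrial covariate.

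*Nrarp* was the second gene that fell. *Nrarp* (ENSMUSG00000078202, chr2:25180758-25183339, plus strand), a target whose ankyrin-repeat protein binds the Notch intracellular domain and restrains it, was at 32.0, 39.1, 37.9 and 40.3 CPM in Nrg1GOF and at 52.7, 51.3, 52.9 and 56.7 CPM in WT. Nrg1GOF library 1 was the lowest, and the groups did not overlap. The log2 fold change was -0.52 (SE 0.07, adjusted p = 0.000758, edgeR). On the opposite strand the exons of *Gm38287* cover 2051 of the 2582 exonic bases of *Nrarp*, and that gene had 2 to 21 counts per library against 322 to 1384 for *Nrarp*. Whether the counting used strand is not given in the sources used here, so reads of the overlapping genes cannot be told apart. The genes that overlap exons of *Notch1*, *Notch2*, *Notch3* and *Dll4* had at most 26 counts in any library.

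The difference between *Hey2* and the other targets was also measured within libraries, where scaling plays no part. The count of *Hey2* was 9.61 to 11.4 times that of *Hey1* in the WT libraries and 1.78 to 2.21 times in the Nrg1GOF libraries, a difference in log2 ratio of -2.46 (SE 0.09). Against *Heyl* the ratio went from 5.95 to 7.90 in WT to 1.31 to 1.53 in Nrg1GOF, a difference of -2.27 (SE 0.11). Against *Hes1* it went from 8.93 to 10.5 in WT to 1.60 to 2.04 in Nrg1GOF, a difference of -2.38 (SE 0.10). All these ratios were lower in Nrg1GOF without overlap. *Hey2* also fell more than *Nrarp*, with a ratio of 3.32 to 3.77 in WT and 1.34 to 1.67 in Nrg1GOF and a difference of -1.30 (SE 0.09). Each of the 4 differences had p = 0.0286 in an exact two-sided permutation test over the 70 assignments of the libraries, the smallest value this design can give, and p = 0.0286 after adjustment over the 4 ratios. For *Hey1*, *Heyl* and *Hes1* this outcome was fixed beforehand, because *Hey2* was lower and these genes were higher without overlap. Their p values add no support, and only the ratio to *Nrarp* was open. The ratios compare counts and not molecules, since the genes differ in length.

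**Figure D3:**
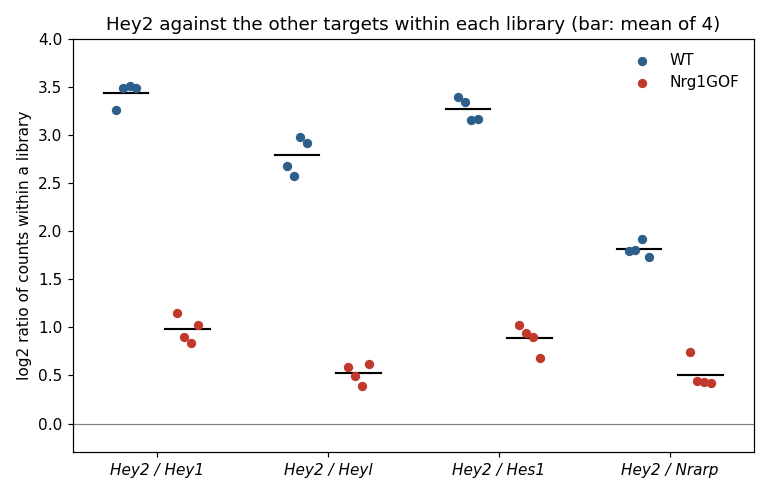
Log2 ratio of the *Hey2* count to the count of *Hey1*, *Heyl*, *Hes1* and *Nrarp* (vertical axis) in each library, with bars at the group means. All WT points (blue) lie above all Nrg1GOF points (red) in each of the 4 ratios, and the gap is smallest for *Nrarp*.

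Levels were compared between genes per length, as counts scaled to library size and to the length of the merged exons (RPKM). In WT *Hey2* was the most abundant of the 10 genes at 40.8 ± 1.92 RPKM, followed by *Nrarp* at 20.7 ± 0.89 and *Hes1* at 9.60 ± 1.22 RPKM (SD, n = 4). *Notch3* (9.38 ± 1.53), *Dll4* (8.21 ± 0.46), *Notch1* (7.08 ± 0.69) and *Notch2* (7.03 ± 1.16) came next, then *Heyl* (5.32 ± 0.50), *Hey1* (5.30 ± 0.40) and *Jag1* (4.47 ± 0.57 RPKM). Only *Hey2* and *Nrarp*, *Nrarp* and *Hes1*, and *Notch2* and *Heyl* were neighbours in this order whose libraries did not overlap. In Nrg1GOF the order opened with *Nrarp* at 14.4 ± 1.42, *Hes1* at 14.1 ± 1.68 and *Hey2* at 11.5 ± 0.30 RPKM. The libraries of *Nrarp* and *Hes1* overlapped, and those of *Hey2* lay below those of *Hes1* and above those of *Notch3* (9.43 ± 1.05). *Notch1* (9.10 ± 0.16), *Hey1* (8.24 ± 0.64), *Dll4* (7.48 ± 0.55), *Heyl* (7.22 ± 0.36), *Notch2* (7.07 ± 0.54) and *Jag1* (5.07 ± 0.77 RPKM) followed, and among these the libraries of *Notch1* and *Hey1*, and of *Notch2* and *Jag1*, did not overlap. The order depended on the length used. Per base of its longest transcript, which is 2550 bases against 4593 of merged exons, *Hey2* came first in both genotypes, at 73.5 RPKM in WT and 20.8 RPKM in Nrg1GOF. In Nrg1GOF it then overlapped *Hes1* at 19.6 RPKM, and *Hes1* lay above *Nrarp* at 14.4 RPKM without overlap. *Notch1* moved to the fourth place in both genotypes, at 10.6 RPKM in WT and 13.6 RPKM in Nrg1GOF, and *Hes1* stood at 13.3 RPKM in WT. *Hey1* was then at 7.15 RPKM in WT and 11.1 RPKM in Nrg1GOF, and *Heyl* at 5.99 and 8.13 RPKM. Differences between the genotypes within a gene do not depend on the length.

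Since most of these genes are expressed in vessels and endocardium, markers of the cell types present were set beside them. The summed level of 12 endothelial markers was 1600 to 1718 CPM in Nrg1GOF and 1402 to 1439 CPM in WT, and 7 of the 12 were called higher and none lower. The rise was led by *Nfatc1* (log2 fold change 1.21), a transcription factor of endocardium, *Plvap* (0.80) and *Emcn* (0.67), with *Flt1* (0.44), *Tek* (0.45), *Npr3* (0.37) and *Tie1* (0.28) also higher, whereas *Pecam1* (0.08), *Egfl7* (0.07), *Cdh5* (-0.04), *Kdr* (-0.04) and *Erg* (-0.04) did not pass. Of 7 arterial endothelial markers *Unc5b* (0.76) and *Bmx* (0.70) were higher and *Sema3g* (-0.997) was lower, with a summed level of 367 to 445 CPM in Nrg1GOF and 291 to 316 CPM in WT. Most of that sum was *Unc5b*, with means of 266 CPM in Nrg1GOF and 157 CPM in WT. *Gja4* (-0.07), *Sox17* (-0.45), *Cxcr4* (-0.11) and *Efnb2* (-0.07) were not called, and the median log2 fold change of the 7 was -0.071. Of 9 mural markers 4 were higher, led by *Tagln* (1.20), *Cnn1* (0.73) and *Pdgfrb* (0.29). The 3 that were lower were *Acta2* (-0.70), *Rgs5* (-0.59) and *Kcnj8* (-0.33). Their sums were 1415 to 1576 CPM in Nrg1GOF against 1684 to 1952 CPM in WT. *Acta2* was the largest part of that sum, with means of 666 CPM in Nrg1GOF and 1084 CPM in WT, so the sum does not describe the list as a whole.

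Markers of several other cell types differed as well. Epicardial and fibroblast markers were at 5154 to 6610 CPM in Nrg1GOF and 2768 to 3675 CPM in WT, with 9 of 10 higher and *Tbx18* (-0.33) lower. Macrophage markers were at 101 to 116 CPM against 52.8 to 62.7 CPM, with 8 of 8 higher. Atrial markers were at 1601 to 1774 CPM against 1001 to 1120 CPM, with 3 of 6 higher, among them *Myl7* (1.24) and *Myl4* (0.61). Cardiomyocyte markers were at 35091 to 40767 CPM in Nrg1GOF and 43798 to 46969 CPM in WT, with 5 of 9 lower and none higher. *Myh7* was the largest of them, with means of 12616 CPM in Nrg1GOF and 17606 CPM in WT, and *Myh6* (0.51) was not called. Of 4 ventricular markers *Irx4* (-0.44) was lower and *Hand1* (0.38) higher, with sums of 3314 to 4653 CPM against 4588 to 4765 CPM. Most of that sum was *Myl2* (-0.24, not called), with means of 3802 CPM in Nrg1GOF and 4481 CPM in WT. None of 8 red cell markers was called, at 5422 to 8886 CPM against 4409 to 13016 CPM. Markers of myocardium, vessels, epicardium and blood were thus present in every library of the labelled ventricle. The part of these cell types in the differences of the 10 genes was not tested.

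Each gene was then expressed as a percentage of the summed endothelial markers of its own library. *Hey2* was at 12.8% to 13.9% of that sum in WT and at 3.13% to 3.19% in Nrg1GOF, a log2 difference of -2.06 (SE 0.03). *Nrarp* was at 3.66% to 4.00% in WT and 1.87% to 2.37% in Nrg1GOF (-0.76, SE 0.09). *Dll4* was at 2.11% to 2.34% in WT and 1.50% to 1.87% in Nrg1GOF (-0.37, SE 0.08), and *Hey1* at 1.14% to 1.34% in WT and 1.41% to 1.79% in Nrg1GOF (0.40, SE 0.09). These 4 genes did not overlap between the genotypes and each had p = 0.0286 in the exact two-sided permutation test, and p = 0.0714 after adjustment over the 10 genes. Since 0.0286 is the smallest p of this design, none of the 10 could pass unless at least 6 reached it, so the adjusted value does not bear on the size of the differences. For *Hey2* and *Nrarp* the separation was fixed beforehand, because they were lower and the endothelial sum was higher without overlap. The higher sum widens any fall. Beside summed cardiomyocyte markers, a reference added later, the differences were -1.57 for *Hey2*, -0.27 for *Nrarp*, 0.12 for *Dll4* and 0.89 for *Hey1*. Against the endothelial sum the groups overlapped for *Hes1* (0.32, SE 0.11), *Heyl* (0.21, SE 0.09), *Notch1* (0.13, SE 0.08), *Notch2* (-0.22, SE 0.15), *Notch3* (-0.22, SE 0.16) and *Jag1* (-0.06, SE 0.16). *Notch1* was thus at 6.20% to 7.96% of the endothelial sum in WT and at 7.57% to 8.18% in Nrg1GOF. Single WT libraries moved these smaller differences: without WT library 2 they were 0.18 for *Notch1* and 0.26 for *Heyl*, then without overlap, and -0.12 for *Notch2* and -0.13 for *Notch3*, and without WT library 3 that of *Notch1* was 0.065 and that of *Hes1* 0.38, the latter then without overlap. With the mean of the log2 levels of the 12 markers as the reference, in which each marker has equal weight, the difference was 0.28 for *Hey1* (exact permutation p = 0.0571), 0.0091 for *Notch1* and 0.087 for *Heyl*, while *Hey2* (-2.18), *Nrarp* (-0.88) and *Dll4* (-0.49) again had p = 0.0286 before and p = 0.0952 after adjustment. By this reference *Hes1* was at 0.20, *Notch2* at -0.34, *Notch3* at -0.34 and *Jag1* at -0.18.

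**Figure D4:**
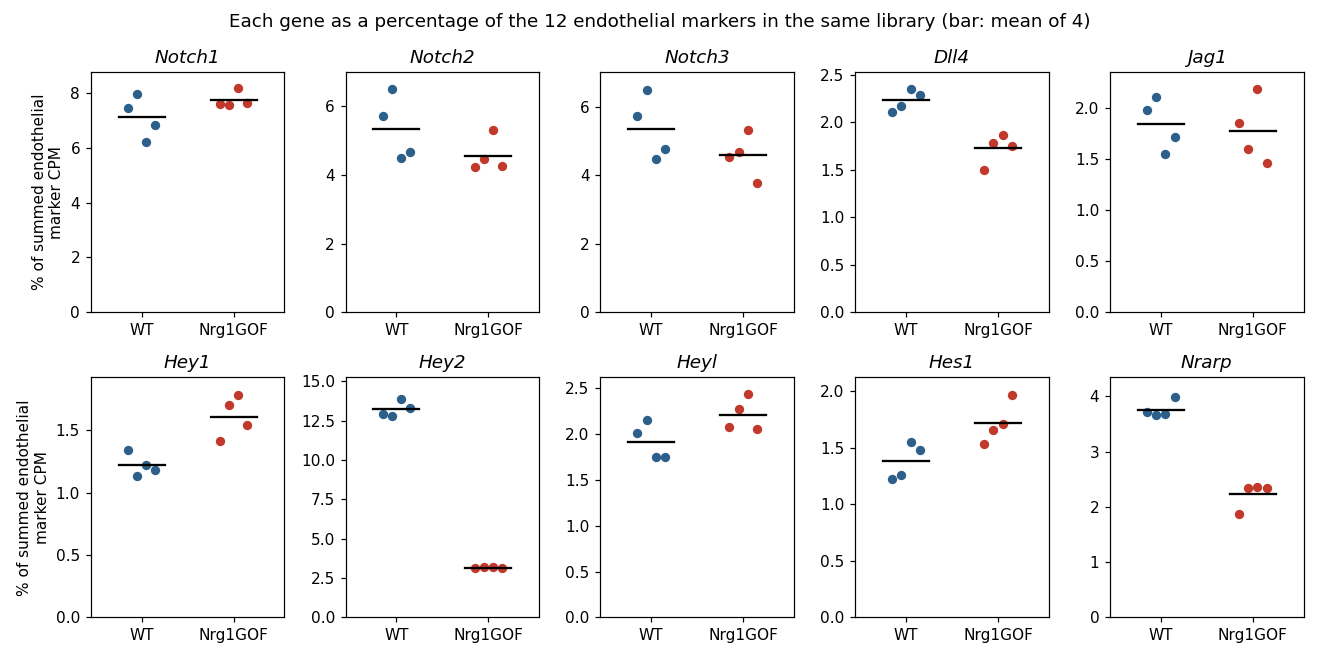
Level of each gene as a percentage of the summed CPM of 12 endothelial markers in the same library (vertical axis, from 0), in WT (blue) and Nrg1GOF (red), with bars at the group means. *Hey2*, *Nrarp* and *Dll4* lie lower and *Hey1* higher in Nrg1GOF without overlap, while the points of *Notch1*, *Notch2*, *Notch3*, *Jag1*, *Heyl* and *Hes1* overlap.

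The rest of the pathway was described by 6 lists. Of 63 listed genes 57 were tested, 17 were higher, 3 were lower and 37 were not called, with a median log2 fold change of 0.10. The 20 calls were 35.1% of the tested genes of these lists, beside 28.7% of all tested genes, and the 17 rises were 29.8%, beside 15.9%. The rises include 4 of the 7 tested genes in the list of other Hes-type and *Id* genes. They also include *Dner*, whose call was bound to the filter on low counts. Without the list of other Hes-type and *Id* genes, 16 of 50 were called, *Dner* among them, a share near that of all tested genes.

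Among the other receptors and ligands the ligand *Dll1* (log2 fold change 0.48, SE 0.14, adjusted p = 0.0237, edgeR) was higher, whereas *Notch4*, *Jag2* and *Dlk1* were not called, and *Dll3* and *Dlk2* were too low to test. The other call of this list, *Dner*, a non-canonical ligand of neurons, was scarce, with 12 to 25 counts in the Nrg1GOF libraries and 2 to 6 counts in the WT libraries (means of 1.11 and 0.175 CPM). It passed the filter on low counts only through the group where it was high, so its call was bound to the filter and its fold is not given. Among 9 genes for ligand endocytosis and receptor glycosylation, the ubiquitin ligases *Neurl1a* (0.70) and *Mib1* (0.32) and the O-glycosyltransferases *Poglut1* (0.25) and *Pofut1* (0.23) were higher, and *Neurl1b* (-0.51) was lower. *Mib1*, which licenses ligands in the signal-sending cell, passed narrowly at an adjusted p of 0.0489 (edgeR). It was at 173, 150, 155 and 150 CPM in Nrg1GOF and at 139, 147, 111 and 105 CPM in WT. *Neurl1a* was at 3.31, 4.81, 3.68 and 3.38 CPM in Nrg1GOF and at 2.94, 2.78, 2.02 and 1.64 CPM in WT. In both genes WT 1 and 2 lay closer to Nrg1GOF than WT 3 and 4 did.

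Of 10 genes for receptor cleavage, *Furin* (0.86), the convertase that cuts the receptor before it reaches the surface, and the γ-secretase subunits *Psen2* (0.40) and *Ncstn* (0.36) were higher and none was lower. *Furin* was at 201, 228, 243 and 222 CPM in Nrg1GOF and at 133, 124, 116 and 119 CPM in WT, with no overlap, but cuts many other precursors too. Of 15 nuclear partners, the co-repressors *Tle3* (0.68) and *Tle1* (0.38) and the co-activator *Maml3* (0.59) were higher, and *Tle4* (-0.24) and *Snw1* (-0.20) were lower. *Rbpj* itself, through which all canonical signals pass, did not pass the test (0.02, SE 0.07), at 75.5 CPM in Nrg1GOF and 74.3 CPM in WT. Of 11 genes of receptor turnover only *Numbl* (0.75) was called.

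Of 11 other Hes-type and *Id* genes 7 were tested. *Id3* (1.04), *Id2* (0.74), *Id1* (0.67) and *Bhlhe40* (0.37) were higher, *Hes6*, *Hes7* and *Bhlhe41* were not called, *Hes5* was too low to test, and *Hes2*, *Hes3* and *Helt* had 0 counts in all 8 libraries. The *Id* genes encode inhibitors of basic helix-loop-helix factors and are classical targets of bone morphogenetic protein signals. *Id3* was at 75.3, 96.0, 87.8 and 86.0 CPM in Nrg1GOF and at 43.5, 45.6, 37.4 and 41.8 CPM in WT, with no overlap.

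**Figure D5:**
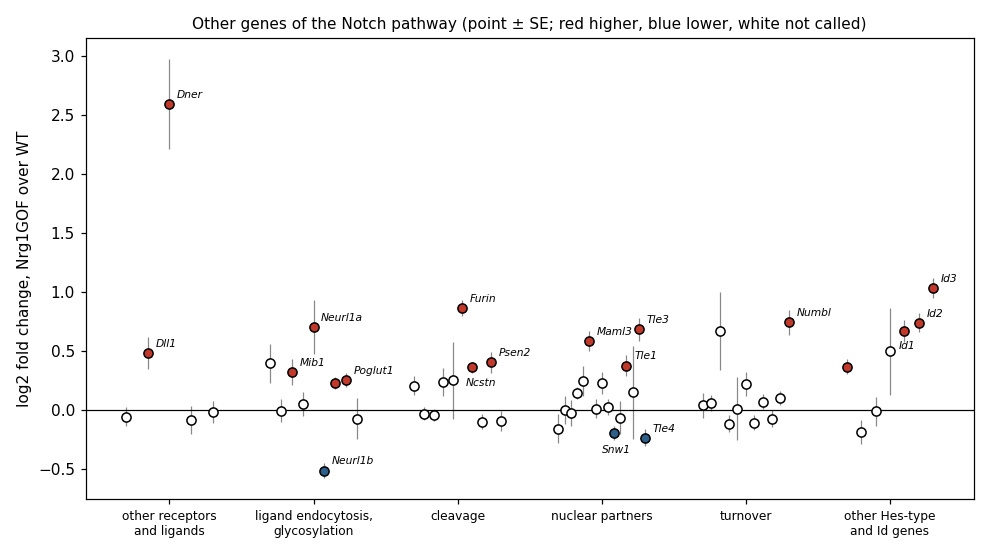
Log2 fold change of Nrg1GOF over WT (vertical axis) for the 57 tested genes of 6 further pathway lists, each with its SE. Red points are called higher, blue points called lower and white points not called. Red points outnumber blue ones by 17 to 3. The 17 include *Dner*, the topmost point, which passed the filter on low counts only through Nrg1GOF and whose call was bound to that filter.

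The genes whose level followed *Hey2* most closely over the 8 libraries were *Klhl41* (Pearson's r = 0.999), *Rbm20* (0.998), *Ky* (0.998), *Ppargc1a* (0.997) and *Gab1* (0.996), among tested genes with an average log2 CPM of at least 1. The 8 libraries fall into the 2 genotypes, so this likeness is a description of genes that were low in the same 4 libraries and carries no test. Their own log2 fold changes were -1.55 for *Klhl41*, -0.76 for *Rbm20*, -1.94 for *Ky*, -0.90 for *Ppargc1a* and -0.56 for *Gab1*. None of the other 9 genes described here was among them.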

How the data were processed

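Heart ventricles at E15.5 were profiled by RNA-seq in 4 Nrg1GOF and 4 WT libraries (directional poly(A) libraries from 100 ng of RNA, single reads of 60 bases). The values deposited by the authors are RSEM expected counts per gene, unscaled, in which a read that fits several genes is shared, so that they need not be whole. The submitters' processing notes name RSEM 1.3.1, cutadapt and GRCm38, the name of the table gives Ensembl release 91, and aligner and strand setting are not given in the sources used here. Group and replicate were taken from sample titles.

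Expected counts were rounded, filtered with filterByExpr, scaled by trimmed mean of M-values and tested in edgeR 4.0.16 (R 4.3.3) with its quasi-likelihood F-test on genotype alone. A generalised linear model of edgeR is also what the methods of the study name. P values were adjusted by Benjamini-Hochberg over all tested genes, and SEs were derived from log2 fold change and F. Ratios within libraries used counts plus 0.5. Lengths, coordinates and overlaps came from GENCODE M21, a later annotation than that of the counts. The 10 genes, the pathway and marker lists and the tests were chosen with earlier results of these data known. Named genes were the 10, up to 3 called genes with the highest and the lowest log2 fold change of each list, any gene needed to complete a count of 2 or fewer, and the 5 most like *Hey2*. Other genes were named after their values were seen (the other endothelial markers, *Pofut1*, *Bhlhe40*, *Rbpj*, overlapping genes and those described as not called or not tested). Alternatives were DESeq2 1.42.0, limma-voom (limma 3.58.1), the likelihood ratio test, other scalings, filters and thresholds, unrounded counts, thinning, a replicate block, WT pairs, atrial or endothelial covariates and leaving out each library. Library totals ranged from 8038641 to 26786039 counts. The scripts were tested on simulated data. Reads were not used here.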

Additional observations from a re-analysis of the deposited data

Results flagged for a closer look

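Of 50 groups of 4 libraries examined (library totals, CPM, *Hey2* ratios and percentages of the endothelial sum), 8 held a library far from the other 3, where chance would give about 2.5. The groups share libraries and genes and are not independent. The total of Nrg1GOF library 4 was 8038641 counts against 20578081 to 22547833 in the other Nrg1GOF libraries, and without it the same 6 genes were called.

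Nrg1GOF library 1 stood apart in 3 of these groups. *Dll4* was at 25.6 CPM there and at 29.7 to 30.0 CPM in the others. *Nrarp* was at 1.87% of the endothelial sum against 2.34% to 2.37%, and the log2 ratio of *Hey2* over *Nrarp* was 0.74 against 0.43 to 0.45. Without that library the difference in this ratio was -1.38.

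In Nrg1GOF library 3 *Notch2* was at 84.9 CPM against 72.4 to 74.4 CPM, and *Notch1* was at 8.18% of the endothelial sum against 7.57% to 7.64%. In WT library 1 the log2 ratio of *Hey2* over *Hey1* was 3.27 against 3.48 to 3.50. In WT library 4 *Nrarp* was at 4.00% of the endothelial sum against 3.66% to 3.72%.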

How the results depend on the processing

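Over 512 alternatives of all results, 436 kept their direction and side of the threshold or moved by less than their spread, and the others are given by value or count here or in the report; the cause was not tested unless stated. The 6 called genes were called in every fit without a covariate, and in the reported fit also at adjusted p under 0.01. In all 4467 genes were called (6126 at unadjusted p under 0.05). Leaving out one library gave 3239 to 4261 calls. With the WT pairs summed, 2464 genes and 11 other pathway genes were called. With the covariate of atrial markers the counts were 1238 and 8, and 4 of the 10 genes were called, *Notch1* (0.21) and *Heyl* (0.25) being lost, while *Notch2* (-0.30), *Notch3* (-0.38) and *Jag1* (-0.17) turned. With the endothelial covariate, whose groups do not overlap, 0 genes were called by edgeR in all 3 counts, against 1933, 5 and 7 at unadjusted p under 0.05, and *Hes1* turned to -0.58, *Hey2* (-2.29), *Nrarp* (-0.59), *Hey1* (0.99), *Heyl* (1.25) and *Notch1* (0.79) kept their direction, and *Notch2* (1.37, adjusted p = 0.343), *Notch3* (1.72, adjusted p = 0.233) and *Jag1* (1.89, adjusted p = 0.201) stood far above their reported values without passing. Adjusted p under 0.01 left 2535 genes, and an absolute log2 fold change of at least 1 left 724 genes, 1 of the 10 and 2 other pathway genes. Those 2 were *Id3* and *Dner*, and the call of *Dner* was bound to the filter on low counts. Scaling by library total alone gave 2874 higher and 1521 lower genes against 2474 and 1993.

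*Notch2* (-0.060 to 0.11) and *Notch3* (-0.059 to 0.11) changed sign as single libraries were left out, as they did against WT 1 and 2 (-0.17 each), and *Notch3* was at -0.0016 after thinning. Against endothelial markers, leaving out single libraries gave ranges of -0.16 to 0.028 for *Jag1*, 0.065 to 0.18 for *Notch1*, -0.30 to -0.12 for *Notch2* and -0.30 to -0.13 for *Notch3*.

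In the replicate block, equal numbers share only a number: deviations of same-numbered libraries correlated at 0.049 to 0.20, with 4524 genes and 6 of the 10 called. For the *Hey2* ratios the block cannot pass (p = 0.125, exact sign flips) at differences of -2.46 (*Hey1*), -2.27 (*Heyl*), -2.38 (*Hes1*) and -1.30 (*Nrarp*). With WT pairs summed they were -2.45, -2.27, -2.38 and -1.30 (exact permutation p = 0.0667, the smallest possible).

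References added after the data were seen moved the comparison with endothelial markers. The 5 endothelial markers that were not called were chosen for not differing, so they restate each gene's own fold change by construction and test nothing relative to endothelium: 0.36 for *Notch1*, -0.14 *Dll4*, 0.63 *Hey1*, -1.82 *Hey2*, 0.44 *Heyl*, 0.55 *Hes1*, -0.52 *Nrarp*, 0.017 *Notch2*, 0.014 *Notch3* and 0.18 *Jag1*. Cardiomyocyte markers gave 0.62 for *Notch1*, 0.89 *Hey1*, -1.57 *Hey2*, 0.70 *Heyl*, 0.81 *Hes1* and -0.27 *Nrarp* (adjusted p = 0.0476, exact permutation), with *Notch2* (0.27), *Notch3* (0.27), *Dll4* (0.12) and *Jag1* (0.43) reversed and not passing. For *Notch1*, *Hey1*, *Heyl* and *Hes1* this was fixed beforehand, because they were higher and the cardiomyocyte sum was lower without overlap.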
